A study of Mus musculus with 4 samples.

Results

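Lhx3, Lhx4, Isl1, Hesx1, Neurod1, Neurod4, Six6, Sox2 and Otx2 are 9 transcription factor genes of early pituitary and neuroendocrine development. Their chromatin was examined in a mouse gonadotrope line by ATAC-seq, which tags DNA that a transposase can reach and so reads out open chromatin. The members were the peaks whose annotated gene name is 1 of the 9 genes. There were 22 such peaks among 83344 in vehicle library 1, 50 of 178358 in vehicle library 2, 28 of 85112 in activin library 1 and 23 of 70692 in activin library 2. Promoter labels accounted for 5, 5, 6 and 5 of these peaks in that order, and the other 17, 45, 22 and 18 were distal. The promoter share was 22.7%, 10.0%, 21.4% and 21.7% of the member peaks, beside 13.0%, 7.51%, 12.9% and 14.7% of all peaks. These labels take in internal starts and, in vehicle library 1, the start of another gene 56.0 kb from that of Lhx4. Many were weak: a −log10 q (the significance the authors' peak caller gave) under 2 was found for 14, 36, 14 and 11 of them. That was 47.8% to 72.0% of each library's member peaks, beside 53.6% to 76.8% of all its peaks. Of the 9 genes, 7 had at least 1 such peak in any library, while Neurod4 and Sox2 had none.

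The cells were LβT2 (called LβT2b in the culture notes), an established line from a mouse pituitary tumour. All 4 libraries came from cells kept without serum overnight before 6 h of treatment: 2 libraries from cells given vehicle, and 2 from cells given activin A, a TGFβ family ligand, at a dose of 1 nM. The labels name no genetic change. The line arose from a mouse carrying a viral T antigen driven by the Lhb promoter, so it stands for a transformed gonadotrope. Coordinates are of build GRCm38. The labels do not say whether the 2 libraries of a treatment came from separate cultures, so tests measure only the spread between these libraries, which may be technical.

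LIM-homeodomain factors (Lhx3, Lhx4, Isl1) bind DNA through a homeodomain and recruit partner proteins through LIM domains; Lhx3 and Lhx4 are needed for growth of Rathke's pouch, the embryonic source of the anterior pituitary, and Lhx3 and Isl1 also act in the gonadotrope lineage. Hesx1 and Six6 are homeobox repressors of the early pouch, and Otx2 is a homeobox factor of the forebrain and the pouch. Neurod1 and Neurod4 are basic helix-loop-helix factors that bind E-boxes as dimers with E proteins, and Sox2 marks pituitary progenitors. Accessible promoters are a usual feature of genes that are expressed, but the files hold no RNA.

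Depth ran from 172146474 to 224226184 autosomal reads of high quality per library. Vehicle library 2 stood apart in the length of its list, with 178358 peaks against 70692 to 85112 in the others. Enrichment of reads at start sites was 2.48 to 2.72 under vehicle and 3.04 to 3.12 under activin. Of 6 gonadotrope markers with a RefSeq promoter window, 5 had a peak over it in all 4 libraries, beside 50.1% of all genes. Among them were Lhb, Cga and Gnrhr, and Fshb had none. By gene name, 4 of 7 had a promoter peak in all 4 libraries, beside 24.3% of all genes. Nr5a1, which has no such window, had one by name in activin library 1 alone (a −log10 q of 5.15). Of 3 corticotrope or melanotrope markers and 3 somatotrope, lactotrope or thyrotrope markers with such a window, 0 and 0 did, nor did either of 2 folliculostellate, endothelial or blood markers. Of 2 progenitor markers with such a window, 0 had a peak over it in all 4 libraries; by gene name, 2 of 4 (Sox9 and S100b) had a promoter peak in all 4.

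The promoters of the 5 genes with a peak in every library are shown first, with that of Sox2, which had none, for contrast. Each sequence is the 250 bases before a RefSeq start (assembly GRCm38.p6), 5′ to 3′ on the gene's strand. Capitals mark matches, on either strand, to TAATTA (a homeodomain core), TAATCC (the core bound by Otx factors), GTCTAGAC (a SMAD box) or CANNTG (an E-box), which includes CAGATG, the form bound by Neurod factors.
Isl1 promoter, chr13:116309689-116309938, - strand: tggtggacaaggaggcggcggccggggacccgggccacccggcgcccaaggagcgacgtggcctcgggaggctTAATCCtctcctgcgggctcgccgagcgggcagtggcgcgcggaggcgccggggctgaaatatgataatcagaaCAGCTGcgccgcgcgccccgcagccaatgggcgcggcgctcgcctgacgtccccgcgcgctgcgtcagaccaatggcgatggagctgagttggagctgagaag
Lhx3 promoter, chr2:26206576-26206825, - strand: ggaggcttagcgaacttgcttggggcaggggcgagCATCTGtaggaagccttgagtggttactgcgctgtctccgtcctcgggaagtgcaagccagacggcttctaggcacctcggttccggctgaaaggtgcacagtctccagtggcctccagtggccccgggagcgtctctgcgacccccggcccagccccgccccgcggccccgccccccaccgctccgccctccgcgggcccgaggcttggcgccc
Lhx4 promoter, chr1:155742028-155742277, - strand: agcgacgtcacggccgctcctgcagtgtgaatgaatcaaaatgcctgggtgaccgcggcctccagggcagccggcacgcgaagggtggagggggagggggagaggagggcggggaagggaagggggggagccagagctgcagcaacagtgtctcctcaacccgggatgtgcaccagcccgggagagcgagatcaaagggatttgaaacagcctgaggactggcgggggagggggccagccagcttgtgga
Six6 promoter, chr12:72939632-72939881, + strand: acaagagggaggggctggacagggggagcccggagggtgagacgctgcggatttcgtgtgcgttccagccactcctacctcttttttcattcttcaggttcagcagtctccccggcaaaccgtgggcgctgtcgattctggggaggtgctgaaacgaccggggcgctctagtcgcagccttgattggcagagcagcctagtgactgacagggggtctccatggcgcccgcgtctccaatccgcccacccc
Neurod1 promoter, chr2:79456637-79456886, - strand: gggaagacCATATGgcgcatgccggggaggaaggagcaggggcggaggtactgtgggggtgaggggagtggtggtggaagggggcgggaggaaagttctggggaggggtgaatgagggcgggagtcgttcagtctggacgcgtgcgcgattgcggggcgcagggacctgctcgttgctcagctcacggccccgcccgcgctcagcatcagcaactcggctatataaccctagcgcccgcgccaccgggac
Sox2 promoter, chr3:34649745-34649994, + strand: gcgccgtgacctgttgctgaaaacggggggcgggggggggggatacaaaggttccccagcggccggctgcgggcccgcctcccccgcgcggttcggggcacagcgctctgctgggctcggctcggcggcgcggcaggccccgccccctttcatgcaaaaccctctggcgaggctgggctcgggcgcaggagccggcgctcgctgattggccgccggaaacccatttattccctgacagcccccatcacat

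All 6 are GC-rich. The share of G and C was 71.2% for Isl1, 70.8% for this Lhx3 start, 66.0% for Lhx4, 62.8% for Six6, 67.6% for Neurod1 and 72.0% for Sox2, where the median of 32851 RefSeq windows was 52.4%. The ratio of observed to expected CpG was 1.06 for Isl1 (96.4th percentile), and between 0.564 for Lhx4 and 0.841 for Neurod1 for the other 4 genes with a peak. Sox2, without a peak, had a ratio of 0.833, so base composition did not separate it from them. The windows of Hesx1 (34.0% G and C, ratio 0.291) and of the outer Neurod4 start (51.2%, ratio 0.125) held few CpG. Other windows without a peak held more: the inner Neurod4 start had a ratio of 0.379, and the 4 Otx2 starts had 0.529 to 1.03, the highest close to that of Isl1. The Lhx3 window holds 1 CAGATG match, 215 bases before the start and written here from its other strand, which 14.4% of all windows hold. The Isl1 window holds 1 TAATCC match, 177 bases before the start, found in 6.25% of windows. E-boxes are in 66.2% of windows, and in 7 of the 14 windows of the 9 genes. GTCTAGAC is in none of the 14 and in 0.167% of all windows. A match is a description of these letters and not of a bound site.

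The first question was which of the 9 promoters are open. A promoter open in few cells and one weakly open in many cannot be told apart in bulk data. A promoter was called open when its strongest peak had a −log10 q of at least 5 in all 4 libraries, and weakly open when a peak was called but that did not hold. By place, with any peak over the RefSeq window of 250 bases before to 50 after a start, 1 promoter was open (Isl1), 4 were weakly open with a peak in every library (Lhx3, Lhx4, Six6 and Neurod1), and 4 had no peak in any library (Hesx1, Neurod4, Sox2 and Otx2). Among 17492 protein-coding genes, 37.3% met the rule for open, 50.1% had a window peak in all 4 libraries and 39.1% had none in any. For a peak over the start base itself the counts were 1 open, 3 with a peak in all 4 libraries and 4 with none in any, beside 36.6%, 48.1% and 41.7% of the same genes. The placement by window was added after the peaks had been seen. By the annotated gene name and promoter label, 0 of the 9 were open, 4 (Lhx4, Isl1, Six6 and Neurod1) had a promoter peak in all 4 libraries and 5 had none in any. Of 21887 protein-coding genes, 17.4% were open by name, 24.3% had such a peak in all 4 and 53.8% had none. The difference between both counts came from Isl1 and Lhx3, whose start-site peaks carried another gene's name in some or all libraries.

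**Figure D1:**
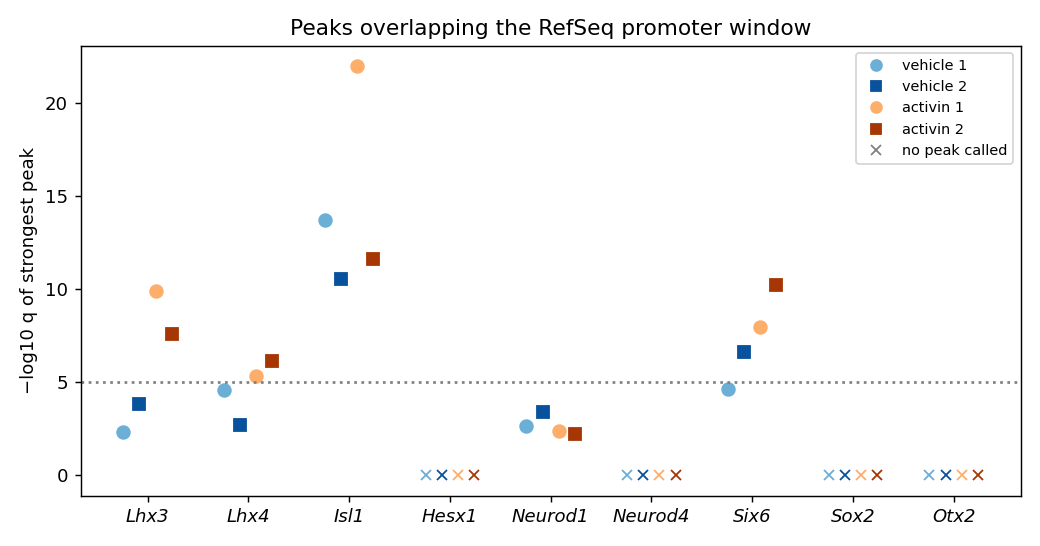
Strength (−log10 q, vertical axis) of the strongest peak over the RefSeq promoter window of each gene in each library; crosses mark no called peak and the dotted line is at 5. Isl1 lies above 10 in all libraries, Neurod1 below 4, and 4 genes have no peak.

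Isl1, the LIM-homeodomain gene on the reverse strand of chromosome 13 (116298270 to 116309688), had the strongest promoter of the 9 in every library. The peak over its start (116309113 to 116310423 over all libraries) had a −log10 q of 13.7 and 10.5 under vehicle and 22.0 and 11.6 under activin. It held 457 and 483 high-quality reads under vehicle and 872 and 470 under activin. Within its own library it ranked in the strongest 3.25% to 10.8% of peaks. In vehicle library 1 and activin library 1 the same stretch carried the name Gm38193, another gene of the annotation, although its promoter label was that of Isl1. By name, the promoter peak of those 2 libraries was a weaker internal one, at 1.66 and 4.63.

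Isl1 also had distal regions in every library. The one 12.5 kb downstream was about as strong as the promoter in vehicle libraries 1 and 2 and activin library 1. In activin library 2, where the promoter had a −log10 q of 11.6, that region and the one 15.8 kb downstream were stronger. The region 12.5 kb downstream of the start (116296237 to 116298098), just beyond the RefSeq end of the gene, had a −log10 q of 13.7 and 10.6 under vehicle and 22.2 and 20.2 under activin. Both activin values were above both vehicle values. The intergenic region 15.8 kb downstream (116293428 to 116294311) had 9.43 and 8.48 under vehicle and 16.3 and 16.9 under activin, again without overlap. A weaker region 5.70 kb downstream (116302518 to 116305453), labelled as intron 2 of 2, an internal start or the gene end, had at most 2.63 and 4.15 under vehicle and 4.63 and 6.62 under activin. The other region under this name, 1 peak of vehicle library 2, made 5 regions in all, of which 4 were present in every library.

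Lhx3, which lies on the reverse strand of chromosome 2 (26200212 to 26208249), was almost absent by name. Its only peak so named was in exon 6 of 6 in vehicle library 2, with a −log10 q of 1.39. By place, the inner of its 2 RefSeq starts, at 26206575, lay under a peak in all 4 libraries that the annotation gave to Gm27196 (26206140 to 26206994). The −log10 q there was 2.35 and 3.85 under vehicle and 9.89 and 7.59 under activin, and the peak held 400, 316, 532 and 398 high-quality reads. Both activin values were at least 5 and neither vehicle value was. The promoter label of this peak was that of Lhx3 in vehicle library 1 and of the other gene in the rest, and accessibility of starts that lie together cannot be told apart. No library had a peak over the outer start.

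Lhx4, on the reverse strand of chromosome 1 (155698031 to 155751726), had a peak in the promoter window of the RefSeq start at 155742027 in every library (155741148 to 155743170). In vehicle library 1 its edge lay 0.18 kb upstream of the start itself. The −log10 q was 4.60 and 2.68 under vehicle and 5.34 and 6.12 under activin, all close to the threshold of 5 or below it, and the peak held 365, 931, 1022 and 704 high-quality reads in that order. The peak was 673 and 1936 bp long under vehicle and 1850 and 1332 bp with activin, and in vehicle library 1 it covered only 68 of the 300 window bases. The 26 Lhx4 regions were otherwise weak and scattered: 18 were called in 1 library alone, and the single region present in 3 libraries, in intron 2 of 4 (155719988 to 155720769), had a −log10 q of 2.10, 1.34 and 2.20. A region at −9.33 kb lay over the 5′ end of the RefSeq gene interval (155750601 to 155752121). It had a peak in vehicle library 2 (1.44) and activin library 1 (1.29) only, 323 and −6 bp from the annotated Lhx4 start. Just upstream, a peak with the Lhx4 promoter label was called in activin library 1 alone (2.53). By the same annotation, the peaks at 155742027 lay 9138 to 9612 bp inside the gene.

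Six6, the homeobox gene on the forward strand of chromosome 12 (72939882 to 72944899), had a promoter peak (72938740 to 72940668) with a −log10 q of 4.63 and 6.62 under vehicle and 7.97 and 10.2 under activin. The reads numbered 317, 417, 537 and 284. It missed the rule for open in vehicle library 1 alone, and without that library the count of open promoters by name was 1. The peak covered all 300 window bases in each library, but was 754 bp long in activin library 2 against 1308 to 1364 bp in the others. In activin library 1 its promoter label was that of the neighbouring transcript 4930447C04Rik. No distal region of Six6 was present in more than 1 library.

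Hesx1, on the forward strand of chromosome 14 (26994419 to 27002329), had no peak over the promoter window of its 1 RefSeq start. That start, at 27000362, lies inside the gene interval. A distal region was present in every library. It lay 6.41 kb downstream of the start at 27000362, intergenic, beyond the end of the gene (27005958 to 27007589). The −log10 q was 3.44 and 2.87 under vehicle and 9.04 and 6.69 under activin, without overlap, and the interval was 1398 to 1589 bp long. This region held 254, 294, 445 and 358 high-quality reads. Upstream, a weak region lay over the 5′ end of the RefSeq gene interval (26994088 to 26994523) and was labelled intergenic. It was called in both vehicle libraries (1.78 and 1.36) and in neither activin library. The region next to it (26992468 to 26993416) was called in both activin libraries (1.75 and 1.63) and in neither vehicle library. All of these values were under 2, where the lowest −log10 q in the lists was 1. Within its own library each of these peaks ranked in the strongest 41.5% to 63.0%.

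Neurod1, on the reverse strand of chromosome 2 (79452637 to 79456636), had a short promoter peak in all libraries (79456597 to 79457033). The −log10 q was 2.65 and 3.40 under vehicle and 2.36 and 2.24 under activin, so that it was the only one of the 5 promoters lower in both activin libraries. It held 124, 209, 201 and 145 high-quality reads over 316 to 412 bp. A distal intergenic region at −28.8 kb (79485092 to 79485820) was stronger than the promoter in 3 of the 4 libraries, at 3.97 and 2.90 under vehicle and 6.28 and 7.52 under activin. A further region at −22.3 kb (79478487 to 79479300) was weak in each library (1.23, 1.19, 2.23 and 1.41). Among 3 libraries each, a region at −42.6 kb had 2.79, 4.02 and 2.36 and one at −50.4 kb had 1.57, 1.38 and 1.75, the former not in vehicle library 1 and the latter not in activin library 2. Neurod1 had the most regions of the 9 genes, 31, of which 20 were in 1 library alone.

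**Figure D2:**
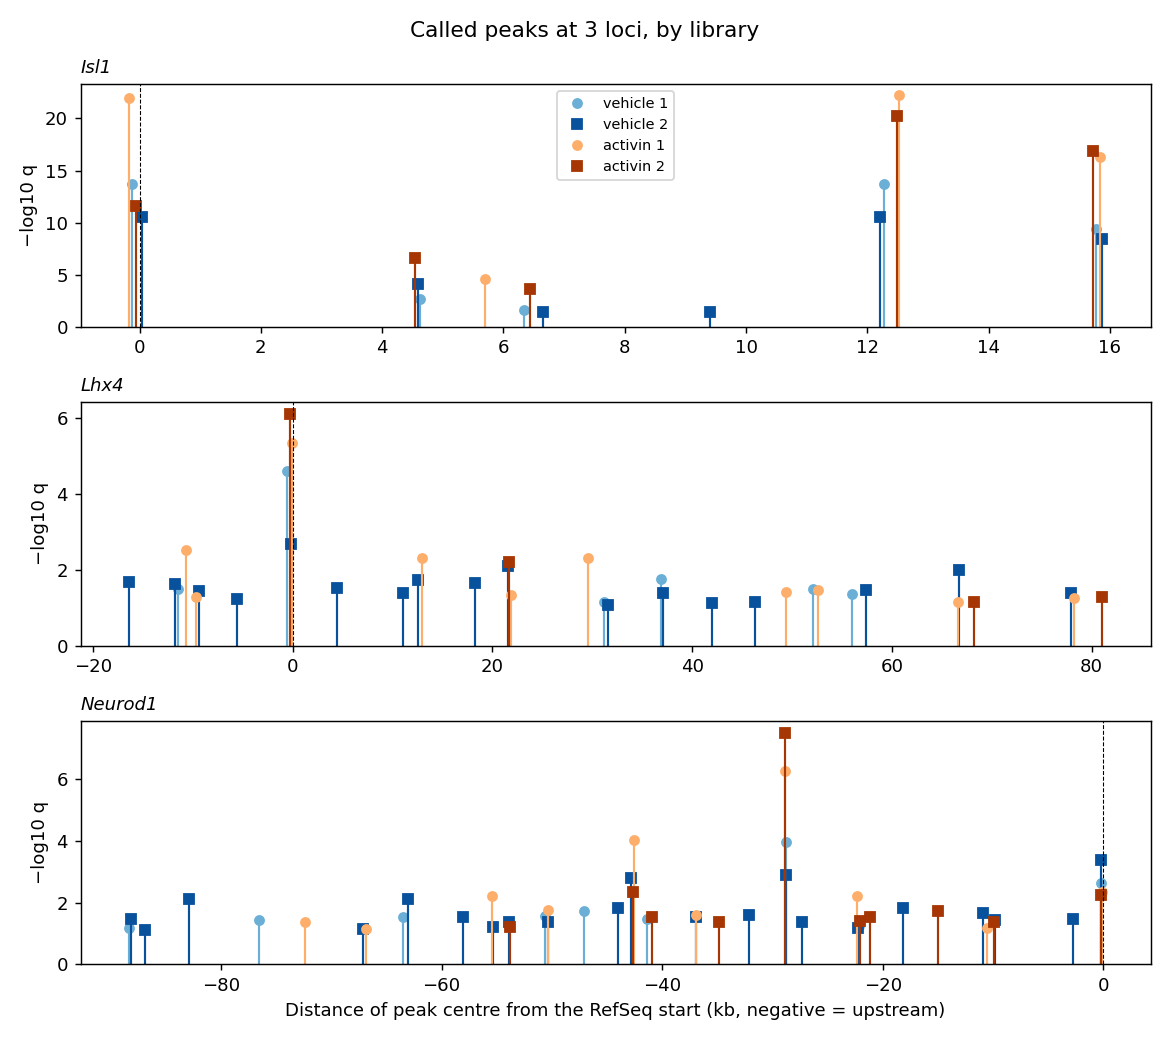
Peak centres (horizontal axis, kb from the RefSeq start, negative upstream) and −log10 q (vertical axis, own scale for each gene) for the called peaks at Isl1, Lhx4 and Neurod1, coloured by library. Isl1 shows a few tall clusters shared by all libraries. Lhx4 and Neurod1 show few shared clusters among scattered weak peaks, many from vehicle library 2.

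Neurod4 (chromosome 10, 130268152 to 130280254), Sox2 (chromosome 3, 34649995 to 34652461) and Otx2 (chromosome 14, 48656781 to 48667644) had no peak over any RefSeq start. The only peak under these names was 1 of Otx2 in vehicle library 2, in intron 4 of 4 (−log10 q of 1.37). The files give reads only for called peaks, so no read number can be given for these promoters, and no called peak does not show that they were without open chromatin. The nearest peak to a Sox2 start lay 101 and 37.5 kb away under vehicle and 192 and 175 kb away with activin. As far or farther were 6.15%, 7.76%, 3.40% and 4.36% of 17492 protein-coding genes in the same libraries. For Neurod4 the distances were 29.2 and 29.2 kb under vehicle and 39.9 and 39.9 kb with activin, reached by 8.96% to 14.0% of genes. For Otx2 they were 7.23 and 2.58 kb under vehicle and 50.8 and 53.3 kb with activin, and the near vehicle peaks were weak (1.32 and 1.37). As far or farther were 28.1%, 27.9%, 9.999% and 10.3% of genes. From the Hesx1 start at 27000362, the nearest peak was the downstream region, 5.60 to 5.68 kb away in every library. Of all genes, 20.5% to 33.3% were as far or farther. The 5′ end of the Hesx1 interval, under a weak peak in both vehicle libraries, was not among the starts measured.

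**Figure D3:**
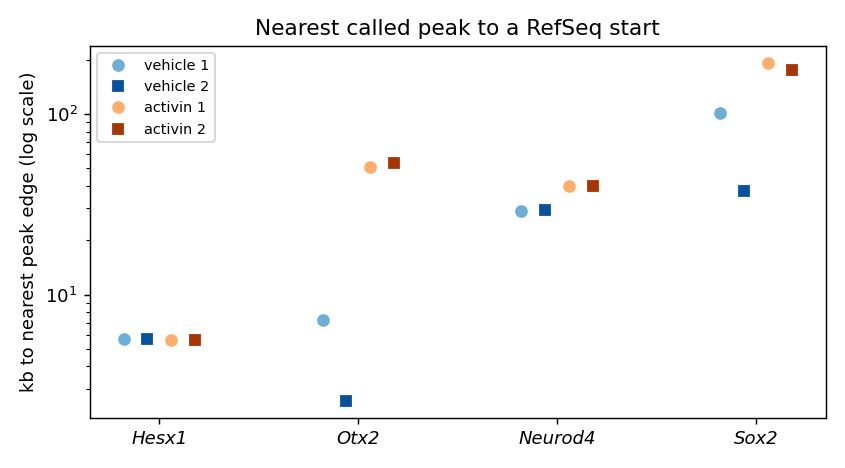
Distance from the nearest RefSeq start to the edge of the nearest called peak (kb, log axis) in each library. Shown are the 4 genes without a peak over a RefSeq promoter window. Hesx1 stays near 5.6 kb in all libraries, and Sox2 lies between 37.5 and 192 kb.

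Reads were spread unevenly over the chromosomes that carry these genes, in all libraries alike. The mean density, in high-quality reads per kb per 1000000 such reads of the library, was 0.596 to 0.601 on chromosome 2 (Lhx3 and Neurod1) and 0.446 to 0.449 on chromosome 1 (Lhx4). It was 0.238 to 0.250 on chromosome 3 (Sox2), 0.263 to 0.268 on chromosome 13 (Isl1) and 0.268 to 0.272 on chromosome 12 (Six6). On chromosome 10 (Neurod4) the mean density was 0.283 to 0.285, and on chromosome 14 (Hesx1 and Otx2) 0.277 to 0.283. Called peaks per Mb followed the same order at the ends, with 58.5 on chromosome 2 and 13.3 on chromosome 3 in vehicle library 1. The part of this difference in the peak calls was not tested.

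The density of each promoter, in the same unit, was therefore also divided by the mean of its chromosome. The Isl1 promoter had 2.89 and 2.05 under vehicle and 3.44 and 2.87 under activin, which was 10.8, 7.77, 13.1 and 10.7 times its chromosome's mean. The Lhx3 promoter had 2.86 and 3.48 under vehicle and 4.05 and 3.74 under activin, the highest densities of the 5 in 3 of 4 libraries, but 4.75 to 6.79 times its chromosome's mean. The Six6 promoter had 1.37 and 1.38 under vehicle and 1.83 and 2.12 under activin, the lowest densities of the 5, and 5.10 to 7.82 times the mean. The Neurod1 promoter had 2.28 and 2.29 under vehicle and 2.64 and 2.52 under activin, which was only 3.79 to 4.43 times the mean. For Lhx4 the multiples were 4.88 to 7.05. The ranges of Lhx3, Lhx4 and Six6 overlapped one another; that of Isl1 lay above the range of Lhx3 and of Lhx4 and overlapped the upper end of that of Six6. Fold enrichment, as the authors deposited it, was 3.70 to 4.23 for Isl1 and 3.29 to 4.45 for Six6, and lay between 2.01 and 2.72 for Lhx3, Lhx4 and Neurod1 in every library. The distal Isl1 regions 12.5 and 15.8 kb downstream reached 10.1 to 12.9 and 7.35 to 12.8 times the mean.

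**Figure D4:**
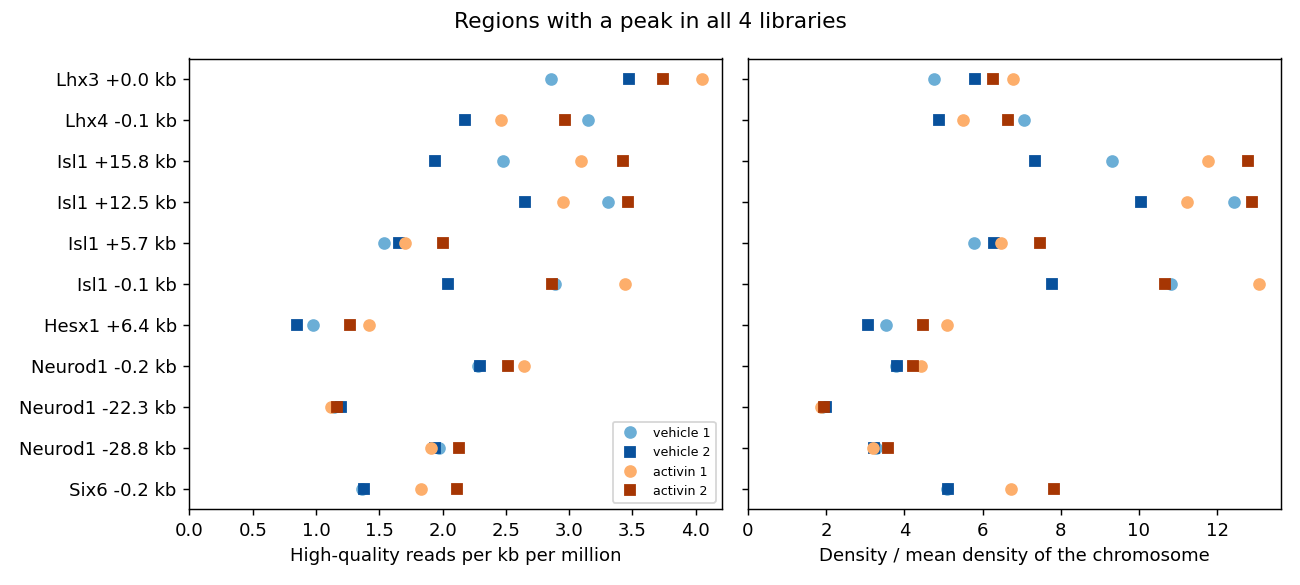
High-quality reads per kb per 1000000 (left) and the same divided by the mean of the chromosome (right) for the 11 regions with a peak in every library; each point is 1 library, and labels give the distance of the region's centre from the RefSeq start. Lhx3 is high on the left and in the middle on the right, while 3 of the Isl1 regions reach the highest values on the right.

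The second question was whether 6 h of activin changed these regions. Peaks under the 9 names numbered 36.0 ± 19.8 under vehicle and 25.5 ± 3.54 under activin (SD, n = 2). They overlapped (2-sided exact permutation p = 1.0, where 2 against 2 can give no less than 0.333). The difference of −10.5 peaks rested on vehicle library 2 and was 3.5 without it. Peaks at or above a −log10 q of 5 numbered 2 and 4 under vehicle and 6 and 8 under activin, a difference of 4 (exact permutation p = 0.333). They made up 9.09% and 8.0% of the member peaks under vehicle and 21.4% and 34.8% under activin. Of all peaks, 14.9% and 7.15% under vehicle and 23.3% and 22.4% under activin reached that strength, so the whole lists moved the same way. Summed over the promoter peaks under the 9 names, the density was 10.0 ± 0.440 under vehicle and 12.4 ± 0.311 under activin (SD, n = 2; exact permutation p = 0.333). Both activin libraries were higher, as they were in the median density of all promoter peaks (2.76 and 2.15 under vehicle, 3.01 and 3.04 under activin). Scaled to the reads inside peaks, the groups overlapped (149.4 and 87.5 under vehicle, 144.0 and 166.8 under activin; exact permutation p = 0.667). Such a sum also moves with what was called and under which name. It took in internal Isl1 peaks and, in vehicle library 1, a start of another gene. The Isl1 start peaks of vehicle library 1 and activin library 1 were left out of it.

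Of the 72 regions with a peak under the 9 names, 45 were in 1 library alone, 23 of these in vehicle library 2, and 10 were in all 4 libraries. Of all 255101 regions, 171817 were in 1 library and 29896 in 4, which are similar shares. In 8 of the 10, the −log10 q of each activin library was above that of both vehicle libraries. The exceptions were the Neurod1 promoter, which was lower in both, and the Isl1 promoter, whose values overlapped. Of all 29896 regions present in 4 libraries, 56.8% were higher in both activin libraries in this way, and 70.2% of the 19692 with a −log10 q of at least 5 in any library, and the 8 of 10 are read beside those shares. Start-site enrichment was also higher in both activin libraries, and its part in these values was not tested.

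Read densities were tested by limma over 13871 shared regions, with 0 regions (0%) past an adjusted p of 0.05, and 1322 (9.53%) at an unadjusted p under 0.05, of which 502 were higher (3.62%) and 820 lower (5.91%). Of the 10 regions, 4 had exactly 1 peak in each library with at least 50% of the length in common, as the test required, and 0 of the 4 passed. Their median log2 change was 0.19, against −0.0049 over all shared regions, and 3 of 4 changes were above 0, as were 48.9% of all. The Isl1 region 15.8 kb downstream had 2.21 ± 0.382 reads per kb per 1000000 under vehicle and 3.26 ± 0.236 under activin (SD, n = 2). Its log2 change relative to the median region was 0.30 ± 0.13 (SE; limma unadjusted p = 0.0473, adjusted p = 0.523), so it did not pass. Scaled to all high-quality reads, which moved the median region by 0.27 towards activin, it was 0.57 with an adjusted p of 0.0446; at that scaling 3.99% of all regions were called higher.

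The Hesx1 region had 0.916 ± 0.0897 under vehicle and 1.34 ± 0.109 under activin (SD, n = 2). The fitted log2 difference was 0.28 ± 0.19 (SE; limma adjusted p = 0.653). After centring, both activin libraries were above both vehicle libraries at these 2 regions, as they were in 20.9% of all shared regions. The Isl1 promoter had a fitted difference of 0.09 ± 0.14 (SE; limma adjusted p = 0.854). The Neurod1 promoter had −0.10 ± 0.12 (limma adjusted p = 0.817), with both activin libraries below both vehicle libraries after centring, as in 20.5% of shared regions. The direction of both promoters depended on the setting: without division by interval length the Isl1 value was −0.01, and without vehicle library 2 −0.07, while the Neurod1 value was 0.17 when scaled to all high-quality reads and 0.01 in the fit over all merged regions.

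The other 6 regions, and the Lhx3 promoter with 48.1% of its length in common, could be fitted only over all 28977 merged autosomal regions present in each library, where intervals differ more. There the log2 change was 0.14 ± 0.17 at the Lhx3 promoter, −0.12 ± 0.18 at the Lhx4 promoter and 0.35 ± 0.20 at the Six6 promoter (SE; limma adjusted p = 0.808, 0.847 and 0.577). The Isl1 region 12.5 kb downstream had −0.06 ± 0.15 and the region 5.70 kb downstream 0.04 ± 0.20. The Neurod1 regions at −28.8 and −22.3 kb had −0.13 ± 0.17 and −0.21 ± 0.24. None of these 7 regions passed (limma adjusted p of 0.577 to 0.957). In that fit 6 of the 10 regions under the 9 names had a value above 0, beside 53.2% of all.

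**Figure D5:**
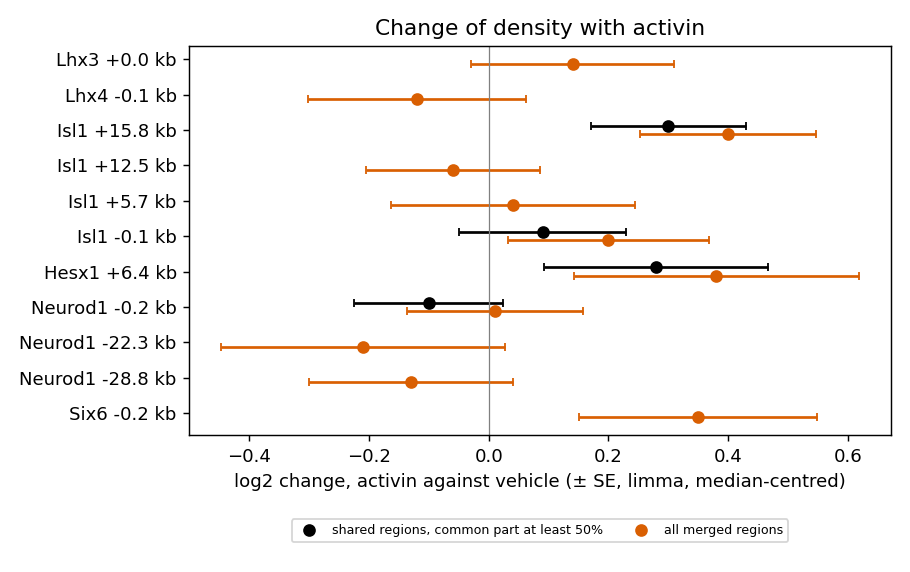
Log2 change of density, activin against vehicle (horizontal axis, bars ± SE from limma), for the 11 regions with a peak in every library, in the fit over shared regions (black, 4 regions) and over all merged regions (orange). No region passes the adjusted threshold; the largest value in the first fit is 0.30, at the Isl1 region 15.8 kb downstream.

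Related genes were read from lists drawn up alongside the members; those named here were picked after their values had been seen. Of 24 other pituitary transcription factors, 8 had a promoter peak under their name in all 4 libraries, 5 of them with a −log10 q of at least 5 throughout, and 8 had none in any library, beside 24.3%, 17.4% and 53.8% of all genes by name. Over RefSeq windows, 12 of them could be counted: 4 had a peak in all libraries, 1 was open and 6 had none. Of all genes, 50.1%, 37.3% and 39.1% did so by window. Pou1f1, which specifies somatotropes, lactotropes and thyrotropes, had no promoter peak. Among 15 cofactors and dimer partners with a RefSeq window, 13 had a peak over it in all libraries and 8 were open, beside 50.1% and 37.3% of all genes. By name the counts were lower, with 9 of 17 in all libraries and 5 open. Ldb1, the cofactor that binds LIM domains, had a −log10 q of 13.7, 6.78, 18.4 and 13.3. Tcf3, an E protein that pairs with Neurod factors, had 13.6, 7.43, 18.4 and 13.3, and the corepressor Tle4 had 49.3, 48.9, 50.2 and 45.0. With activin, 0 of 27 shared regions of the other factors and 0 of 14 of the cofactors passed the adjusted threshold of limma, with median log2 changes of 0.04 and −0.01.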

How the data were processed

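Per the submitters' processing notes, Bowtie2, MACS2 and HOMER were used with build GRCm38 (mm10); versions and settings are not given in the sources used here. The authors deposited, per library, broad peaks called on that library alone, with a score (10 times the −log10 q, without decimals), a fold enrichment over the caller's background (a ratio), and the −log10 of the p-value and q-value. Presence of a peak thus depends on depth. HOMER's annotatePeaks.pl gave genes and distances, per the file headers, and the deposited ataqv 1.3.1 reports gave high-quality autosomal reads per peak.

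Peaks overlapping by at least 1 bp were merged into regions. Shared regions had exactly 1 peak per library and at least 50% in common. Log2 of (reads + 1) per kb, centred on each library's median, was tested with limma 3.58.1 (trend, no block; Benjamini-Hochberg, 0.05), after the step was tested on simulated data. Log2 changes understate those of regions with few reads. Distances run from the region's centre to the nearest RefSeq start. Chromosome means use the length up to the last peak. All 9 genes matched the RefSeq tables; 12 of the 24 other factors had a promoter window. Named regions were all those of the 9 genes present in 4 libraries; weaker regions named beside them were picked after their values had been seen. Members and lists were chosen with earlier results of these data known. The alternatives tried are given with their effects in the closing section. Motifs outside the RefSeq windows were not analysed here. Some results of the other pituitary factors are not reported here.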

Additional observations from a re-analysis of the deposited data

How the results depend on the processing

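The difference in the number of peaks under the 9 names, −10.5, turned round to 2 with a −log10 q of at least 2, to 4 at 5 and to 2.5 with equal numbers of peaks per library; leaving out 1 library gave −24.5 to 3.5. Peaks within 50 kb of a start gave −12.5. The mean summed promoter density was higher with activin under each alternative run, but scaled to reads inside peaks vehicle library 1 (149.4) lay above activin library 1 (144.0). The count of open promoters by name, 0, was 1 with peaks centred within 1 kb of a start, covering the start, or over the RefSeq window, and 3 at a −log10 q of at least 2. With the window it was 5 at a −log10 q of at least 2 and 1 at 10. Leaving out 1 library gave 0 to 1. The count of shared regions called, 0, was 605 (553 higher, 52 lower) when scaled to all high-quality reads, 39 (5 higher, 34 lower) without division by length and 1 with a pseudocount of 10 reads; leaving out 1 library gave 0 to 9, the 9 without activin library 2. The only member region called under any alternative, 1 in all, was the Isl1 region 15.8 kb downstream when scaled to all reads. That scaling raises both activin libraries as a whole; the cause of the other changes was not tested.

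The labels do not say what a shared replicate number stands for, and same-numbered libraries did not deviate together (correlation −0.0252 over the shared regions). With the replicate number as a block 4 shared regions were called and 0 of the members' regions, and the differences of −10.5 peaks and 2.31 in summed density were the same.

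Little can be said of uncalled promoters, since reads are given for called peaks alone. With 2 libraries per treatment, the exact permutation test cannot reach a p under 0.333.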

Other observations

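Several regions near these genes carried other names in the annotation and so were outside the members. Downstream of Six6, a region 6.00 kb from the start (chromosome 12, 72945375 to 72946389, at the start of Gm26709) had a −log10 q of 2.88, 2.06, 4.32 and 2.94 in vehicle libraries 1 and 2 and activin libraries 1 and 2. A stronger one 15.4 kb from the start (72954871 to 72955662, in intron 1 of 1 of the same transcript, named for Gm38170) had 3.72, 5.33, 7.95 and 6.03. Downstream of Neurod1, a region 9.55 kb from the start (chromosome 2, 79446713 to 79447464, in an intron of a neighbouring gene) had 2.32 and 1.76 with vehicle and 7.32 and 7.02 with activin. A region in exon 2 of 2 of Neurod1 itself (79453950 to 79454705), named for Gm26755, was called in 3 libraries at 2.61, 1.77 and 1.60. Upstream of the Lhx3 starts, the first exon of Qsox2 (26236939 to 26237645) had 7.80, 4.69, 14.0 and 14.3. Regions present in all 4 libraries within 50 kb of a start, but under other names, numbered 6 at Lhx3, 5 at Neurod1, 3 each at Hesx1 and Six6, 1 at Lhx4 and 0 at Isl1, Neurod4, Sox2 and Otx2. The 6 at Lhx3 include the peak over its inner start, named for Gm27196. The −log10 q values given here were not tested.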
